A study of Mus musculus with 15 samples.

Results

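Intergenic H3K36me2 domains are stretches of chromatin away from genes in which histone H3 is dimethylated on lysine 36. They were chosen by the called intervals of the H3K36me2 ChIP-seq lists and by gene positions alone. Intervals of the 2 replicates that overlapped or adjoined without a gap were joined into merged peaks, while intervals 1 bp apart were left separate. A merged peak was kept when it lay on chromosomes 1 to 19, was narrower than 30 kb and was touched by an interval of each replicate. It also had to lie more than 3 kb from the span of every RefSeq gene of GRCm38. This gave 2654 domains of 20520 autosomal merged peaks that met the limits of width and replication. The other 17866 peaks lay in a gene (17222) or within 3 kb of one (644) and are called gene-proximal domains below. All merged H3K36me2 peaks numbered 40441. Width, position and distance to genes were used in the selection and are given as descriptions.

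All libraries are from EL4 cells, a mouse T lymphoma line of the C57BL/6N strain, grown without treatment. The lists are of ChIP-seq for H3K36me2, H3K27ac, H3K9ac, H3K4me3 and H3K27me3 and of ATAC-seq, with 2 replicates each. The study's methods call the merged replicates technical, so differences between libraries measure technical spread in 1 line. The lists give positions and no read counts, and depth is unknown. Of 8 T lineage marker genes, 7 had H3K4me3 peaks of both libraries at an end of the gene, while Cd247 did not. Of 5 B lineage and 5 myeloid markers, Cd79a and Lyz2 had such peaks.

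H3K36me2 is written by the NSD family of methyltransferases and by ASH1L, and it can be removed by KDM2A and KDM2B. Unlike H3K36me3, which SETD2 deposits within transcribed genes, H3K36me2 also covers sequence between genes. There it is bound by the DNA methyltransferase DNMT3A, and nucleosomes that carry it are poor substrates for PRC2, the complex that writes H3K27me3. H3K27ac is found at active enhancers and promoters, and ATAC-seq peaks mark accessible DNA.

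The domains were mostly a few kilobases wide. Their median width was 6199 bp, with a range from 799 to 29999 bp and 25% of domains below 4199 bp and 25% above 9599 bp. The gene-proximal domains had a median of 9399 bp. Together the domains covered 20.3 Mb, or 1.86% of the 1093 Mb of autosomal sequence more than 3 kb from any gene, while H3K36me2 peaks of any kind covered 5.15% of it and H3K27me3 peaks 15.1%. Taken alone, H3K36me2 replicate 1 gave 5536 intergenic intervals under 30 kb with a median of 3999 bp, and replicate 2 gave 5982 with a median of 3599 bp. The single-replicate intervals were thus more numerous and narrower than the merged domains. A further 4366 merged intergenic peaks under 30 kb were touched by intervals of 1 replicate only and are no members.

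The part of a domain that both replicates covered varied widely. Per domain, the share of the width in intervals of both replicates had a median of 58.1% and ranged from 1.88% to 100%. Of the base pairs in the domains, 57.1% lay in intervals of both replicates, against 63.7% in gene-proximal domains. Replicate 1 covered 79.6% of the base pairs and replicate 2 covered 77.4%. In 2127 domains (80.1%) a single interval of each replicate made up the domain, which held for 66.2% of gene-proximal domains.

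The 5 widest domains lay on 5 chromosomes. The first, at chr11:86894801-86924799 near Ypel2, measured 29999 bp, of which 24998 bp were covered in replicate 1 and 25398 bp in replicate 2. The next had the same width at chr13:90806401-90836399, 47.0 kb from Atp6ap1l, with 20397 and 29198 bp covered. It held no peak of H3K27ac or ATAC-seq, whereas the first held 6 H3K27ac peaks. At chr6:98824601-98853999, 71.3 kb from Foxp1, a transcription factor gene with roles in lymphocytes, both replicates called nearly the same interval, 28999 and 28399 bp of 29399 bp. The domains at chr10:95022001-95051399 near Plxnc1, which encodes a semaphorin receptor, and at chr15:62892401-62921599 in the gene desert next to Gsdmc measured 29399 and 29199 bp. In the last, only 24.0% of the width was covered in both replicates. Just outside the limit of width were intergenic peaks of 30399 bp at chr12:117427001-117457399 and 30799 bp at chr5:74805601-74836399, and 38 intergenic peaks were 30 kb or wider in all. The narrowest domains measured 799 bp on chromosome 17 and 999 bp on chromosome 13.

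The domains lay at a median of 21919.5 bp from the nearest gene of any kind and 70020 bp from the nearest protein-coding gene. The domains nearest to the limit lay 3009 bp from Naa11 and 3013 bp from Gm32406, and the nearest excluded peaks lay 2993 and 2977 bp from a gene. There were 689 domains at 3 to 10 kb, 913 at 10 to 30 kb, 746 at 30 to 100 kb and 306 beyond 100 kb. The nearest gene encoded a long noncoding RNA for 903 domains (34.0%), a protein for 848 (32.0%) and was a pseudogene for 739 (27.8%). Of all autosomal genes, 26.4%, 43.9% and 18.9% were of these kinds. The 5 domains farthest from a gene all lay in 1 stretch of chromosome 18, between 400.6 and 573.6 kb from a gene and at least 1194 kb from Dsc3, a desmosomal cadherin gene. They were 2199 to 5399 bp wide and held no peak of another set.

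**Figure D1:**
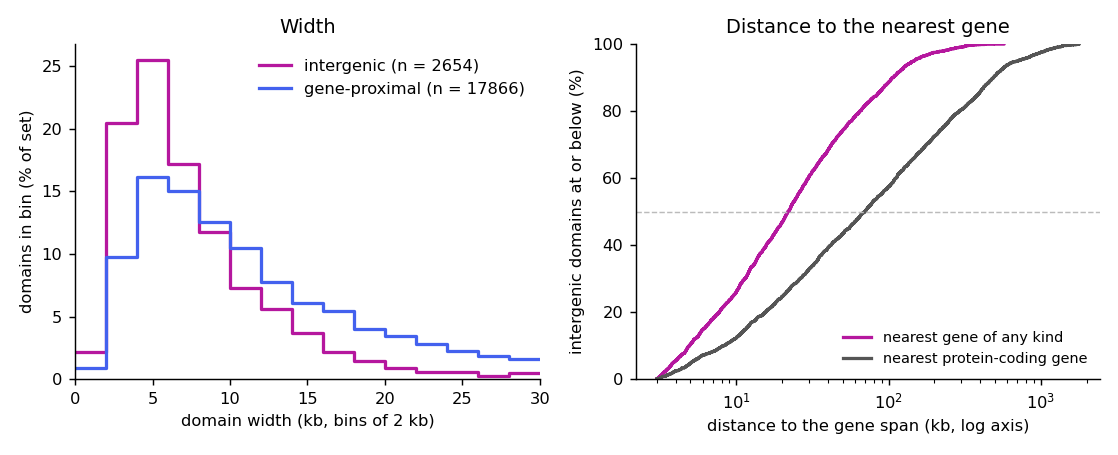
Left, width of the 2654 intergenic and 17866 gene-proximal H3K36me2 domains in bins of 2 kb, as a percentage of each set; right, cumulative percentage of the intergenic domains by distance to the nearest gene of any kind and to the nearest protein-coding gene, on a log axis. Intergenic domains are narrower (median 6199 bp against 9399 bp), and the dashed line at 50% meets the distance curves at their medians of 21919.5 and 70020 bp.

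A minority of the domains held an acetylated or accessible site. An H3K27ac peak touched 604 domains by at least 1 bp (22.8%, exact 95% interval 21.2 to 24.4%), against 27.2% of all 20520 domains and 27.8% of the gene-proximal ones. With the H3K27ac libraries apart, the share was 21.8% and 22.2%. An ATAC-seq peak touched 315 domains (11.9%, 10.7 to 13.2%), against 16.8% of all and 17.5% of gene-proximal domains, and the ATAC-seq libraries apart gave 8.97% and 10.4%. In intergenic intervals of H3K36me2 replicate 1 or 2 alone, which are narrower, the ATAC-seq share was 7.48% and 6.34%. The intervals cover counting error only, and neighbouring domains are not independent.

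H3K9ac, a second acetylation of active promoters, touched 375 domains (14.1%), against 21.8% of all and 22.9% of gene-proximal domains. H3K4me3, the mark of promoters, touched 326 (12.3%), against 22.6% of all and 24.1% of gene-proximal domains, and its share in H3K36me2 replicate 1 or 2 alone was 7.95% and 6.80%. H3K27me3 touched 12 (0.452%), close to the 0.541% of all domains. No peak of any other set touched 2003 domains, which is 75.5%.

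The comparison with gene-proximal domains was repeated in each H3K36me2 library alone. For H3K27ac the share in intergenic domains was 16.1% in replicate 1 and 14.1% in replicate 2, and in gene-proximal domains 20.03% and 18.7%. The difference was -3.95 and -4.62 percentage points, a mean of -4.28 ± 0.471 (SD, n = 2). The exact paired permutation test gave a two-sided p of 0.5, the smallest that 2 pairs allow. This difference changed sign when base pairs covered in both replicates were used (0.604 points) and when protein-coding genes alone defined the genes (1.19 points). For ATAC-seq the differences were -4.18 and -3.43 points, and for H3K4me3 they were -8.08 and -8.10 points, also with an exact p of 0.5. Each difference was larger than the spread between the libraries, but the design cannot reach a lower p. The selection left gene ends in the gene-proximal set only, and its part in these differences was not tested.

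Within bands of width the H3K27ac shares came together. Wide domains were touched more often in both sets, and gene-proximal domains are wider, but the part of width in the difference was not tested. Within bands of width, H3K27ac touched 12.3% of intergenic and 11.8% of gene-proximal domains under 5 kb, 22.3% and 20.4% from 5 to 10 kb, and 39.9% and 40.2% from 10 to 30 kb. These shares lay within the exact intervals of the smaller set. For ATAC-seq the shares were 4.95% and 4.23%, 10.5% and 10.9%, and 25.1% and 28.0%. H3K4me3 stayed lower in intergenic domains in every band, at 6.63% against 10.0%, 11.9% against 17.2% and 21.8% against 35.2%. The rule keeps gene ends, where promoters lie, out of the intergenic set only, and its part in this was not tested. For H3K9ac the shares were 6.42% against 8.76%, 13.9% against 15.8%, which lay within the exact interval of 11.9 to 16.1%, and 26.6% against 34.2%.

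**Figure D2:**
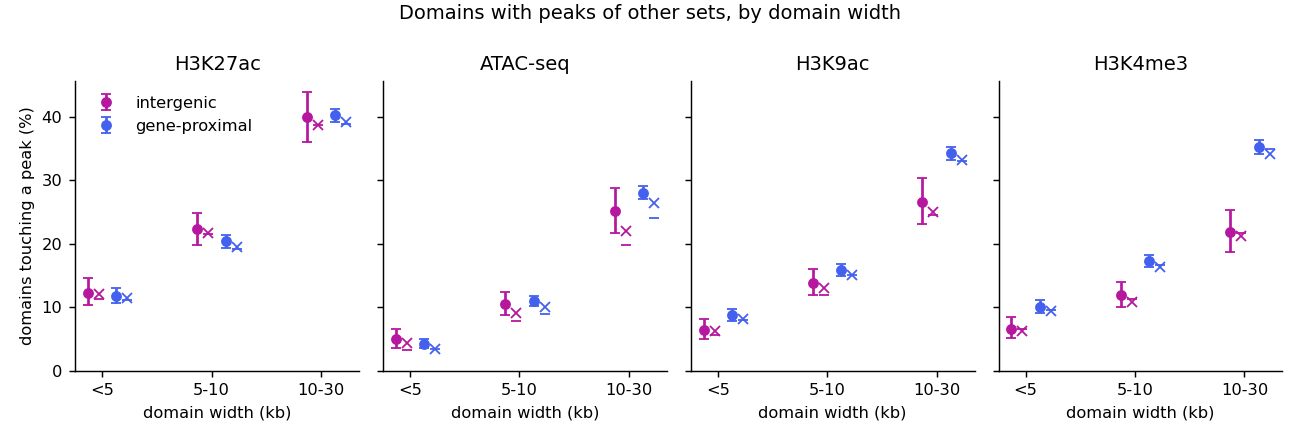
Percentage of domains touched by a peak of H3K27ac, ATAC-seq, H3K9ac or H3K4me3 in 3 bands of domain width; circles use the merged peaks with exact 95% intervals, and the dash and cross to their right use replicate 1 and 2 of the second set. The intergenic and gene-proximal points lie side by side for H3K27ac and apart for H3K4me3, where the widest band gives 21.8% against 35.2%.

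Many of the acetylated domains held no H3K4me3 peak, though some of these may hold H3K9ac. Of 604 intergenic domains with H3K27ac, 283 (46.9%) held no H3K4me3 peak, against 21.6% of the gene-proximal domains with H3K27ac. Acetylated domains without and with H3K4me3 had median widths of 8199 and 8799 bp between genes, against 11199 and 13599 bp for gene-proximal ones. By the rule, gene ends lie in the gene-proximal set only. The part of width and of the rule in this contrast was not tested. In the H3K36me2 libraries alone the share was 52.2% and 54.1% between genes and 27.8% and 28.5% at genes. The mean difference was 25.04 ± 0.817 percentage points (SD, n = 2), and an exact test on 2 pairs cannot go below a p of 0.5. An ATAC-seq peak was present in 278 of the 604, and 326 had H3K27ac without one. Conversely, 37 domains had an ATAC-seq peak and no H3K27ac. All of H3K27ac, H3K9ac, H3K4me3 and ATAC-seq were found in 163 domains. H3K4me3 without H3K27ac was found in 5. More than 1 H3K27ac peak touched 252 domains, and their median width was 10599 bp. H3K27ac calls were the same in both H3K27ac libraries for 98.4% of domains.

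The share of domains with active peaks fell with distance from genes. H3K27ac touched 34.3% of domains at 3 to 10 kb from a gene, 24.2% at 10 to 30 kb, 16.4% at 30 to 100 kb and 8.17% beyond 100 kb. Each H3K27ac library alone gave the same order, from 32.5% and 33.8% in the nearest band to 8.17% in both libraries in the farthest. The ATAC-seq shares were 19.2%, 11.7%, 7.91% and 5.56%. Median width changed little over the first bands (6799, 6399 and 6399 bp) and was 4799 bp in the farthest. The share touched by H3K4me3 moved the same way, from 20.5% through 12.7% and 7.51% to 4.25%, and its part in this gradient was not tested.

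**Figure D3:**
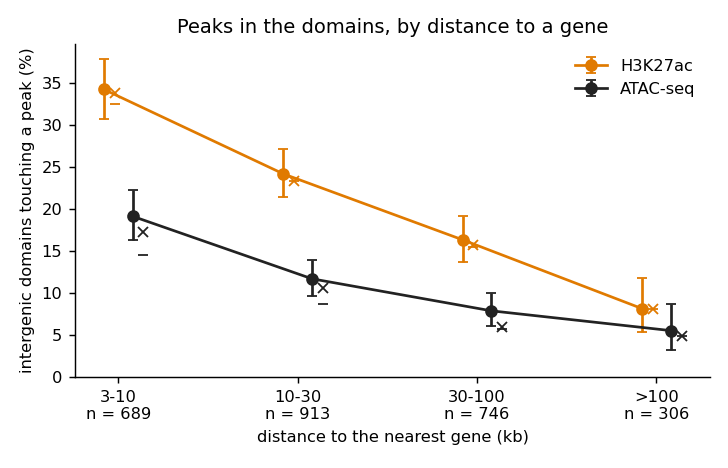
Percentage of the 2654 domains touched by an H3K27ac or ATAC-seq peak in 4 bands of distance to the nearest gene; circles with exact 95% intervals use the merged peaks, and the dash and cross use replicate 1 and 2 of each assay. Both shares are lower in each band farther from genes, from 34.3% to 8.17% for H3K27ac and from 19.2% to 5.56% for ATAC-seq.

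Seen from the side of the acetylation, most H3K27ac peaks between genes touched H3K36me2. Of 4050 intergenic H3K27ac peaks, 60.6% touched some H3K36me2 peak and 24.9% touched a domain. By base pairs, H3K27ac covered 3.96% of the domains, 4.00% of the gene-proximal domains and 0.175% of intergenic sequence outside H3K36me2. The ratio of the domains to the sequence outside was 22.3 in each H3K27ac library. Sequence in which no peak can be called was not taken out of the latter. The cover is thus not particular to the intergenic domains. For ATAC-seq, 36.2% of 2814 intergenic peaks touched H3K36me2, and the base pair ratio was 7.65 and 8.20 in the libraries. ATAC-seq covered 0.605% of the domains and 0.866% of the gene-proximal domains. H3K27me3 covered 0.183% of the domains and 15.9% of intergenic sequence outside H3K36me2. Of 17623 intergenic H3K27me3 peaks, 0.426% touched any H3K36me2 peak.

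For comparison, 8683 intergenic H3K27me3 domains were found by the same rule. H3K27ac touched 4 of them (0.0461%) and ATAC-seq touched 29 (0.334%). The H3K36me2 domains lay at a median of 311101 bp from the nearest H3K27me3 peak, and 5.16% lay within 20 kb of one.

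Acetylated and accessible DNA was denser just outside a domain than within it. For the 1377 domains at least 6 kb wide, ATAC-seq peaks covered 0.833% of base pairs in the last kb inside the edges and 3.10% in the first kb outside. In the ATAC-seq libraries apart these were 0.604% and 0.696% inside, and 2.54% and 2.67% outside. H3K4me3 covered 2.32% inside and 5.48% outside, and H3K27ac covered 6.15% and 7.68%. At 2 to 3 kb inside, the values were 0.542%, 0.670% and 2.98% for ATAC-seq, H3K4me3 and H3K27ac. By the rule, no RefSeq gene lies in the first 3 kb outside. H3K27me3 rose slowly, from 0.312% in the first kb outside to 2.46% at 39 to 40 kb. Around the gene-proximal domains ATAC-seq went from 1.99% inside to 5.37% outside.

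Narrow gaps between neighbouring domains held such sites, though these gaps are in part the same sequence as the first kb outside the edges. There were 578 gaps of at most 5 kb between consecutive domains, with a median of 1201 bp. H3K27ac covered 8.65% of their base pairs and ATAC-seq covered 2.99%, against 3.96% and 0.605% of the domains themselves. An ATAC-seq peak touched 62 of these gaps, and an H3K27me3 peak touched none. In 552 gaps of 5 to 20 kb, H3K27ac covered 2.78% and ATAC-seq 0.721%. The higher cover in narrow gaps was seen in each library, with 7.98% and 8.25% for H3K27ac and 2.47% and 2.63% for ATAC-seq.

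**Figure D4:**
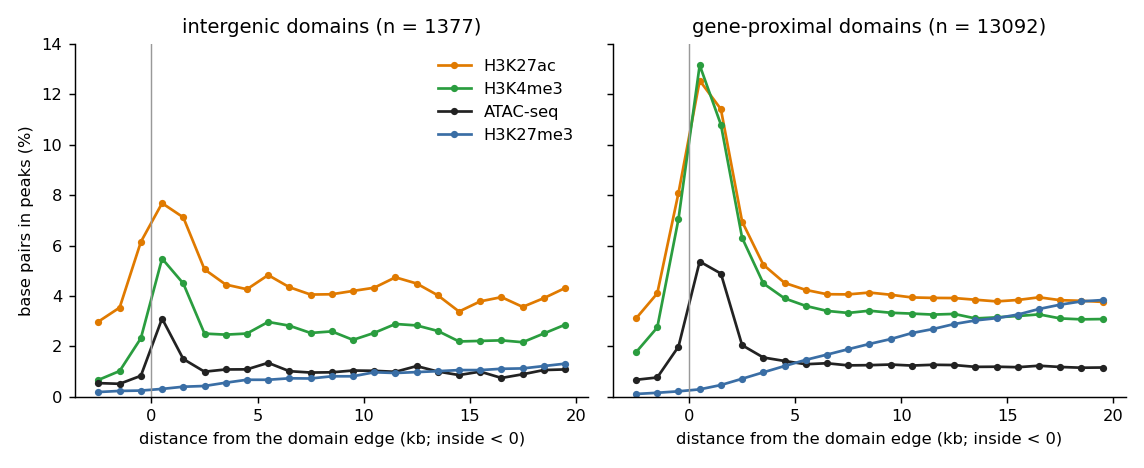
Percentage of base pairs in peaks of H3K27ac, H3K4me3, ATAC-seq and H3K27me3 in bins of 1 kb from 3 kb inside to 20 kb outside the edges of domains at least 6 kb wide, for intergenic (left) and gene-proximal (right) domains. The lines of H3K27ac, H3K4me3 and ATAC-seq peak in the first kb outside the edge, with ATAC-seq at 3.10% around intergenic domains against 0.833% in the last kb inside.

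The domains were gathered in runs. With at most 20 kb between neighbours, 1646 domains (62.0%) formed 516 runs of 2 or more, and 1008 lay alone. Alone means without another intergenic domain within 20 kb. An H3K36me2 peak of any kind lay within 20 kb of 2118 domains (79.8%), and a gene-proximal one within 20 kb of 958 (36.1%). There were 74 runs of at least 5 domains, which held 538 (20.3%). The median distance to the nearest other domain was 9801 bp. Gene-proximal domains, which were more numerous (17866 against 2654), lay closer together, at a median of 2601 bp from each other. The sets were not matched for number. In the H3K36me2 libraries alone, 71.4% and 73.1% of intergenic intervals lay in runs, against 92.4% and 92.6% of gene-proximal ones. Few gene-free stretches held a domain. Of 22689 stretches longer than 6 kb between genes, 1188 (5.24%) held a domain. The 122 stretches with at least 5 domains held 1031 (38.8%) of all. Stretches with a domain were longer, with a median of 58.5 kb against 22.6 kb without. A domain lay in 1.53% of stretches of 6 to 30 kb and in 12.7% of those from 300 kb. By size of stretch, domains per Mb ranged only from 1.71 (from 300 kb) to 3.27 (30 to 100 kb). The part of length in the filling was not tested. The most domains in a stretch, 31, lay in 729 kb of chromosome 11 between Gm11997 and Vwc2.

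Active peaks were found in runs and in lone domains, which can have other H3K36me2 peaks nearby. H3K27ac touched 21.0% of domains in runs and 25.6% of domains alone, and the H3K27ac libraries apart gave 20.3% and 20.4% against 24.2% and 25%. ATAC-seq touched 10.1% and 14.8%. Domains in runs were somewhat wider (median 6599 against 5799 bp) and farther from genes (28652 against 11857 bp). Of the 74 runs of at least 5, 26 held no H3K27ac peak in any domain.

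The longest run stood between Tox, which encodes a regulator of T cell development and exhaustion, and Car8. It held 26 domains over 333 kb at chr4:7224201-7557599, of which the domains covered 59.8%. Of its domains 2 touched H3K27ac and 0 touched ATAC-seq. Its span held 10 H3K27ac peaks, of which 6 lay between the domains, and 2 ATAC-seq peaks, both between them. In the run beside Foxp1 at chr6:98661601-98905599, 13 domains covered 74.6% of 244 kb, and 6 of them touched H3K27ac. Its span held 20 H3K27ac peaks, of which 16 touched a domain, and 5 ATAC-seq peaks, of which 2 did. Of the other runs with most domains, 18 lay at chr11:10086201-10350999 between Abca13 and Vwc2, with 1 touching H3K27ac. There were 15 at chr12:16258801-16425799 between Trib2 and Lpin1, with 2 touching H3K27ac. At chr4:95217601-95456799, between Jun, a subunit of the AP-1 transcription factor, and Fggy, 3 of 13 touched H3K27ac and 3 touched ATAC-seq. The last held 12 domains at chr4:71183001-71364599 between Megf9 and Gm11232.

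**Figure D5:**
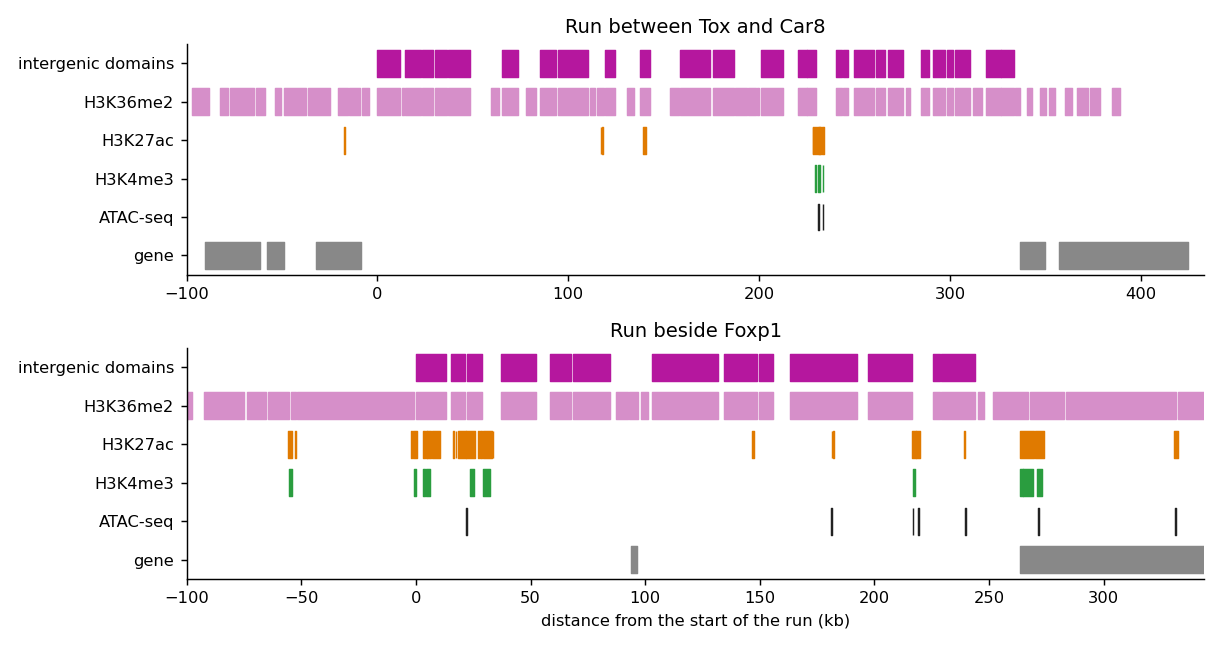
Map of the longest run, between Tox and Car8 (top), and of the run beside Foxp1 (bottom), with the intergenic domains, all merged H3K36me2, H3K27ac, H3K4me3 and ATAC-seq peaks and gene spans drawn to scale against the distance in kb from the start of each run. The upper run holds 26 domains of which 2 touch H3K27ac, and the lower run 13 of which 6 do.

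The domains with most acetylated base pairs were of the kind with many H3K27ac peaks. The first, at chr15:63245401-63268199, was 22799 bp wide and had 16366 bp (71.8%) in 13 merged H3K27ac peaks. The H3K27ac libraries gave 15307 and 15302 bp, and the H3K36me2 libraries covered 18598 and 19998 bp of it. It lay in the gene desert between Myc and Gsdmc, 1.26 Mb from Myc, the proto-oncogene, and 508 kb from Gsdmc, a gasdermin gene. It held 3 H3K4me3 peaks and no ATAC-seq peak. The second, at chr6:98661601-98674599, opened the run beside Foxp1, with 7205 of 12999 bp acetylated. At chr14:79256601-79274599, between Zfp957 and Rgcc, 6493 bp were acetylated. At chr5:136590401-136618199, 22.8 kb from Cux1, a homeobox gene, 6481 bp were. The fifth lay at chr1:137795601-137805599, 257 kb from Ptprc, which encodes the leukocyte antigen CD45, with 6377 of 9999 bp acetylated and an ATAC-seq peak in 1 library.

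The domains were spread unequally over the autosomes. Per Mb of intergenic sequence they numbered from 0.703 on chromosome 14 to 4.98 on chromosome 18, which is 7.09-fold. Chromosome 17 followed with 4.92, chromosome 13 with 4.02 and chromosome 10 with 3.95, while chromosome 16 had 0.960. Each H3K36me2 library alone gave few intervals on chromosome 14 (120 and 103) and many on chromosome 18 (427 and 481). The H3K27ac share ranged from 10.6% of 207 domains on chromosome 17 to 48.8% of 41 on chromosome 14, and it was below that of gene-proximal domains on 13 of 19 chromosomes.

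The nearest protein-coding genes of the domains numbered 997, or 4.82% of 20665 on the autosomes. Of these, 61.5% had an H3K4me3 peak at an end, against 48.1% of all and 33.0% of the genes nearest to intergenic H3K27me3 domains. H3K36me2 lay within the span of 69.0% of them, against 44.7% of all, and H3K27me3 within 9.43%, against 16.8% of all. These genes were picked by nearness to peaks of the same H3K36me2 lists, so the H3K36me2 share is a description only. Gene length was not matched, and its part was not tested. Genes nearest to 5 or more domains numbered 113 and accounted for 49.2% of the domains. The most domains, 46, had Edil3 as the nearest protein-coding gene, and 1 of these touched H3K27ac.

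Genes of T lineage regulators were often nearest to domains. Of 30 on the list, 18 were nearest to at least 1 domain, with 116 domains among them. Of 30 T cell surface and signalling genes 6 were, with 43 domains. Of 15 B lineage genes none was, but only 0.564 Mb of intergenic sequence lay nearest to them, which would hold 1.38 domains at the density of all genes. Of 25 developmental regulators outside T cells 1 was, Sox9 with 3 domains. Genes differ in how much intergenic sequence lies nearest to them, and the T lineage regulators had 7.05 Mb of it. Per Mb of this sequence the regulators had 16.5 domains and the surface and signalling genes 21.1, against 2.45 for all protein-coding genes and 4.51 for those with H3K4me3 at an end. The developmental regulators had 0.608 per Mb in 4.94 Mb. Intergenic H3K27me3 domains numbered 9.65 per Mb at the T lineage regulators, 5.88 at the surface and signalling genes, 9.52 at the developmental regulators and 8.03 at all genes. At the B lineage genes there were 24, or 42.6 per Mb, but these lay nearest to only 3 of the 15 genes and the sequence was only 0.564 Mb. The lists were chosen with earlier results of these data known, and no test was made on them.

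Among the regulators, Tox had 35 domains at 10.2 to 560 kb from the gene, of which 2 touched H3K27ac. Gata3, which directs T cell commitment and the helper type 2 fate, had 27 domains over 266 kb in all, at 62.7 to 1045 kb. Of these, 5 touched H3K27ac in each H3K27ac library and 0 lay on the side of its 5′ end. Myc had 14 at 334 to 876 kb, with 1 touching H3K27ac, and Foxp1 had 13, with 6. Bcl11b, which T cells need to hold their identity, had 3 at 104 to 388 kb and none with H3K27ac. Id2, an inhibitor of E proteins, had 3 and Id3, its relative, had 2, all on the side of the 5′ end. Ikzf2 had 4, Tcf12 had 3, Foxo1, Myb and Runx1 had 2 each, and Ets1, Ets2, Hhex, Runx3, Themis and Zeb1 had 1 each. Most of the regulators thus had few domains, and Tox, Gata3, Myc and Foxp1 had the bulk.

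Of the surface and signalling genes, Ptprc had 23 domains at 44.8 to 512 kb, with 3 touching H3K27ac. Cxcr4, the receptor of the chemokine CXCL12, had 11 at 4.70 to 285 kb, with 6 touching H3K27ac and 4 touching ATAC-seq. Of these 11, 10 lay on the side of the 5′ end. Cd28, which carries the costimulatory signal, and Cd69, an early activation antigen, had 3 each. Il7r, the interleukin-7 receptor chain, had 2, the wider 26.4 kb.

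The promoters of the nearest genes were described by their CpG content. A promoter sequence was matched for 765 of the 997 genes, from 250 bases before to 50 bases after the start. At least 50% GC and an observed-to-expected CpG ratio of at least 0.6 was met by 61.3% of them, against 49.9% of 16457 genes in all and 48.2% of the genes nearest to intergenic H3K27me3 domains. Promoters of Gata3, Ptprc and Foxp1 are printed because, of the genes of both T cell lists with a sequence, these had the most domains. They are RefSeq sequences of GRCm38.p6 on the minus strand, 5′ to 3′, with each CpG (the letters CG, the same on both strands) in capitals. Of several listed starts, a start touched by ATAC-seq peaks of both libraries was taken, or else the most upstream. The promoters of Gata3 (chr2:9878551-9878850) and Foxp1 (chr6:99028249-99028548) were touched by H3K4me3 and ATAC-seq peaks of both libraries, and that of Ptprc (chr1:138175256-138175555) by H3K4me3 peaks of both libraries. They hold 22, 44 and 4 CpG, and 95.6% of all 20085 promoters hold at least 1.
Gata3: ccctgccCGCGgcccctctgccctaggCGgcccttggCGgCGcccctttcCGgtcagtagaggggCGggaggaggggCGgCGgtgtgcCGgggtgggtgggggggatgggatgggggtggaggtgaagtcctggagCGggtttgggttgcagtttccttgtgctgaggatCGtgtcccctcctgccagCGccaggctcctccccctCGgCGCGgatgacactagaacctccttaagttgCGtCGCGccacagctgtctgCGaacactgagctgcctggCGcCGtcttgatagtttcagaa
Foxp1: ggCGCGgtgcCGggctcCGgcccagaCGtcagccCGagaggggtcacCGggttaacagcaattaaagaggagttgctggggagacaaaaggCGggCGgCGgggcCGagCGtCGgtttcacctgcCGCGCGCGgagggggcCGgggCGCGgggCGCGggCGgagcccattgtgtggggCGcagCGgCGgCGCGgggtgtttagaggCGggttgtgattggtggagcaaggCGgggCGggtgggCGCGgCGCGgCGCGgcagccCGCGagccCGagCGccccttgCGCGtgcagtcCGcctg
Ptprc: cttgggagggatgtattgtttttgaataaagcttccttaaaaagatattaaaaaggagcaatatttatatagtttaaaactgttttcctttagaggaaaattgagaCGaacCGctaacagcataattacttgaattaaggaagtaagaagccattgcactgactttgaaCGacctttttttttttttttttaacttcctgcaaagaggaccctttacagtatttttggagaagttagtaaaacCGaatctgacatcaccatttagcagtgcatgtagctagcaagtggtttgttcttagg
The other listed starts of Foxp1 hold 13 and 5 CpG and that of Ptprc holds 2, so the count depends on the start taken. The domain closest to each gene's span lay 62.7 kb from Gata3, 19.7 kb from Foxp1 and 44.8 kb from Ptprc.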

How the data were processed

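The files deposited by the authors are 12 peak lists, 2 replicates for each of 6 assays, with chromosome, start and end and no score or count. Per the labels, reads were aligned with STAR 2.5 to GRCm38 and treated with Picard, and narrow and ATAC-seq peaks were called with MACS2. The methods name Epic for the broad marks and state that reads on the sex chromosomes were discarded. Intervals of broad marks start on 200 bp bins and end 1 bp short of one, so intervals in neighbouring bins are 1 bp apart and were not joined.

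Genes were RefSeq spans of GRCm38.p6. An overlap was at least 1 bp with a merged peak of either replicate, and a gene end reached 3 kb outside and 2 kb inside the span. Libraries were also used apart. Intervals of shares are exact (Clopper-Pearson, 95%) and cover counting error only. No random placement of intervals was used. The members and gene lists were chosen with earlier results of these data known. Named were the 5 widest, the 5 farthest and the 5 most acetylated domains, the 6 runs with most domains, domains and peaks at the limits, and list genes nearest to a domain, of which 1 is not reported here. Edil3 and the stretch with most domains were chosen after their values were seen. Counting was tested on simulated intervals and against bedtools 2.31.1. Tools were Python 3.11.15, NumPy 2.4.6, pandas 2.3.3, SciPy 1.17.1 and matplotlib 3.10.9. Alternatives are in the closing section. The RNA-seq libraries and the input are not analysed here.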

Additional observations from a re-analysis of the deposited data

Results flagged for a closer look

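Chromosome X was left out of the domains, and the methods state that reads on it were discarded, but the lists hold intervals there. By the same rule, 32 intergenic H3K36me2 domains lay on chromosome X, of 138 peaks under 30 kb in both replicates. Their median width was 3799 bp, and 3 touched H3K27ac and 2 touched ATAC-seq.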

How the results depend on the processing

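Of 60 recomputed counts, medians and shares, 41 moved by more than the spread between replicates (for the number of domains, by over 1.5 times). Of 26 recomputed differences from gene-proximal domains, 24 kept their sign, though their size moved widely. Leaving out an H3K36me2 replicate gave 5536 to 5982 domains, median widths of 3599 to 3999 bp, gene distances of 19899.5 to 20067.5 bp, and shares of 14.1 to 16.1% with H3K27ac, 6.34 to 7.48% with ATAC-seq and 71.4 to 73.1% in runs. With base pairs covered in both replicates only there were 4535 domains of 2799 bp at 18040 bp, with 16.6%, 6.15% and 74.7%. With protein-coding genes only there were 4129 of 6999 bp at 54538 bp, with 28.1%, 15.3% and 68.6%. The difference of the H3K27ac share from gene-proximal domains changed sign under these last settings, to 0.604 and 1.19 points, reached -9.36 points beyond 10 kb from a gene, and the cause was not tested. The ATAC-seq difference kept its direction in all 13 alternatives, from -9.06 to -1.24 points. Merging intervals up to 1000 bp apart gave a median width of 6799 bp, a distance of 22856 bp and 58.1% in runs. Beyond 10 kb from a gene the distance was 32923 bp, with 18.7% touching H3K27ac, 9.31% touching ATAC-seq and 65.9% in runs. Merging intervals 1 bp apart, chosen after seeing the data, gave a distance of 22057.5 bp. The H3K27ac share was 18.5% by peak midpoint and 21.3% with peaks touched by both replicates. The ATAC-seq share was 10.2% for overlaps of at least 200 bp, 10.1% by midpoint and 8.06% with peaks touched by both replicates. It was 8.97 to 10.4% without an ATAC-seq replicate, and the H3K27ac share was 21.8 to 22.2% without an H3K27ac replicate. With 10 and 50 kb between neighbours, 50.1% and 74.8% lay in runs. Without a limit of width there were 2692 domains, and width, distance and shares moved by less than the spread. No paired analysis was possible because replicate numbers tie no library of one mark to a library of another, and pairing was made only between sets within the same H3K36me2 library. Depth is unknown, so absence of a peak says only that none was called.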
